A study of Mus musculus with 52 samples.

Results

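Rosiglitazone (Rosi, 100 nM) was compared with its vehicle (DMSO, 0.1%) after 4 days in primary bone marrow stromal cell cultures of the mouse. The arrays were chosen by their titles, which gave 4 Rosi and 4 vehicle arrays, 8 of the 52 arrays of the series. The marrow came from female C57BL/6J mice aged 8 weeks, and the cells of 2 to 4 animals were pooled for each experiment. The pooled marrow was strained and plated, and no cell sort is named in the labels, so the cultures can hold blood cells beside stromal cells. Osteoinductive medium with ascorbate, β-glycerol phosphate, insulin and 10 nM dexamethasone began 7 days after plating, in Rosi and vehicle wells alike, and dosing began with it. Each group holds 1 array of each of the numbers 12, 15, 19 and 20, read here as 4 pools of animals. RNA of each well was hybridised to an Affymetrix Mouse Gene 2.0 ST array, and 14911 of 22180 genes with a probe set of their own passed the filter on low values and were tested.

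Rosiglitazone is a thiazolidinedione drug, an agonist of PPARγ. This receptor of the nuclear family turns on the program of fat cells. It binds DNA with its partner RXR at paired copies of a short motif near the genes of lipid storage, fatty acid uptake and glucose transport. Stromal progenitors of the marrow can become fat cells or bone-forming osteoblasts, and drugs of this class are known to raise marrow fat and to lower bone formation.

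Levels below are log2 values, given in the order 12, 15, 19 and 20, and differences are log2 Rosi minus vehicle ± SE of the limma fit (n = 4 arrays a group). A gene is called, and said to have risen or fallen, where limma's adjusted p was under 0.05. A level under 4.05, the median of the whole table, is near background, and a difference from such a level has an uncertain size. The labels do not say that the wells were separate cultures beyond the pools, so p-values measure a spread between arrays. SE and p-values rest on each gene's spread pooled over all 52 arrays in 13 groups, not on the compared arrays alone. With only the arrays compared in the fit, 5438 genes were called at day 4, against 7316 in the main fit. The adjusted p of Trarg1 was then 1.67e-05, against 2.75e-20 (limma).

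At day 4, 7316 of the 14911 genes (49.1%) were called, 3183 higher (21.3%) and 4133 lower (27.7%) with Rosi. The rises were the larger changes. Among the calls, 968 genes rose and 1010 fell by more than 1 log2 unit, 270 rose and 76 fell by more than 2, and 43 rose and 0 fell by more than 4. The median difference over all genes tested was -0.053. Of the calls, 6498 had the same sign in 4 of 4 pools, 809 in 3 and 9 in 2.

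**Figure D1:**
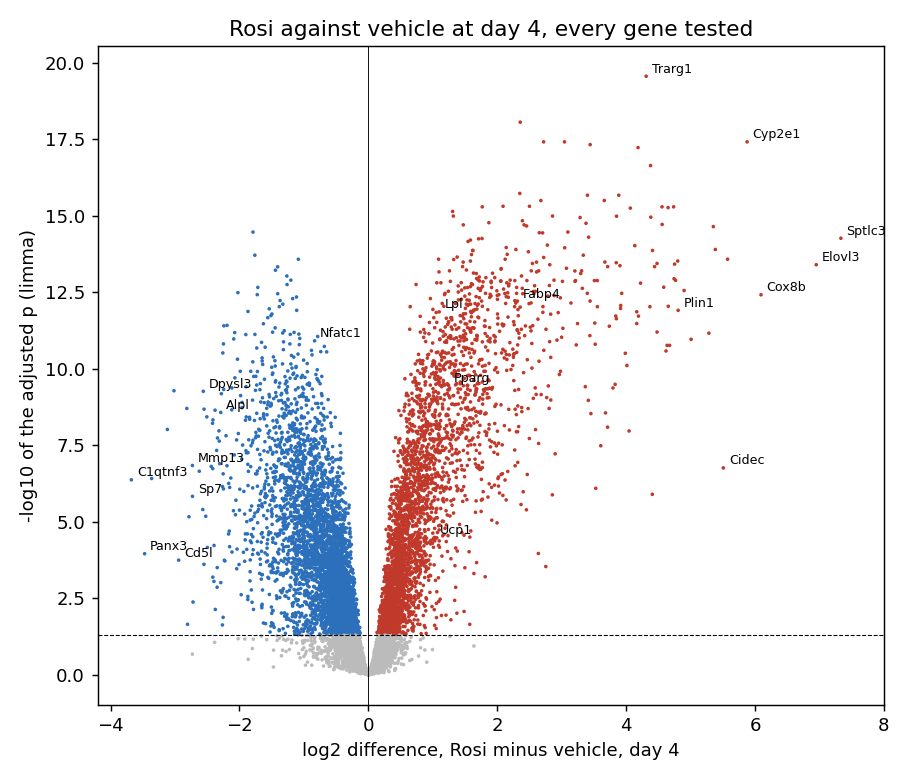
Each point is a gene, with its log2 difference (Rosi minus vehicle, day 4) on the x axis and the negative log10 of limma's adjusted p on the y axis. Red points are the 3183 genes that rose, blue points the 4133 that fell, and grey points were not called. The right arm reaches 7.33 (Sptlc3) and the left arm -3.68 (C1qtnf3).

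The medians of the 8 arrays were 4.01 to 4.11, and their number limits the precision. 2 of them stood apart from their groups. The Rosi array of number 15 had a mean correlation of 0.956 with the other Rosi arrays, which had 0.974 to 0.978. The vehicle array of number 12 had 0.957, against 0.971 to 0.976 for the other vehicle arrays. Array weights estimated by limma were 0.226 for the first and 0.193 for the second.

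The Rosi array of number 15 departed in size more than in direction. Of the 7284 genes called when all arrays of number 15 were left out, 6688 (91.8%) had the same sign in pool 15, and the median ratio of its difference to that of the other pools was 0.57. The ratio was 0.63 for genes that were higher and 0.52 for genes that were lower. In pools 19 and 20, read in the same way, 98.2% and 98.8% of genes had the same sign, both with a median ratio of 1.16. Pool 12 had 86.8% and a ratio of 1.06 for higher genes but 0.71 for lower genes.

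The lists of marker genes show where the 2 arrays lay. A list's score is the mean of its genes' levels, each centred over the 8 arrays. The macrophage score was 0.37 on the Rosi array of number 15, against -0.61, -0.98 and -1.03 on the other Rosi arrays and 0.32 to 0.80 on the vehicle arrays. Its inflammation score was 0.71 (the other Rosi arrays -1.08 to -0.80), its T and NK cell score 1.14 (-0.90 to -0.09) and its endothelial score -0.97 (0.39 to 0.89). On that array the macrophage, inflammation and T and NK cell scores were thus high, and the endothelial score low, for a Rosi array, while its B cell score of -0.09 lay within the range of the others (-0.16 to 0.44).

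The vehicle array of number 12 was low in bone genes and high in blood cell genes for a vehicle array. Its bone matrix score was -0.01, against 0.83 to 1.09 on the other vehicle arrays, and its collagen and matrix score -0.34, against 0.13 to 0.94. Its T and NK cell score was 1.74 (the others -0.76 to 0.45) and its inflammation score 1.52 (-0.28 to 1.13). The part of these cells in the differences below was not tested. Results were recomputed without each of the 2 arrays. Those values are given where they change a call or move the value of a called gene by over 1.5 times. Differences that were not called could move by more, and not all such values are given. Without the Rosi array of number 15, 7797 genes were called, and without the vehicle array of number 12, 7056.

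**Figure D2:**
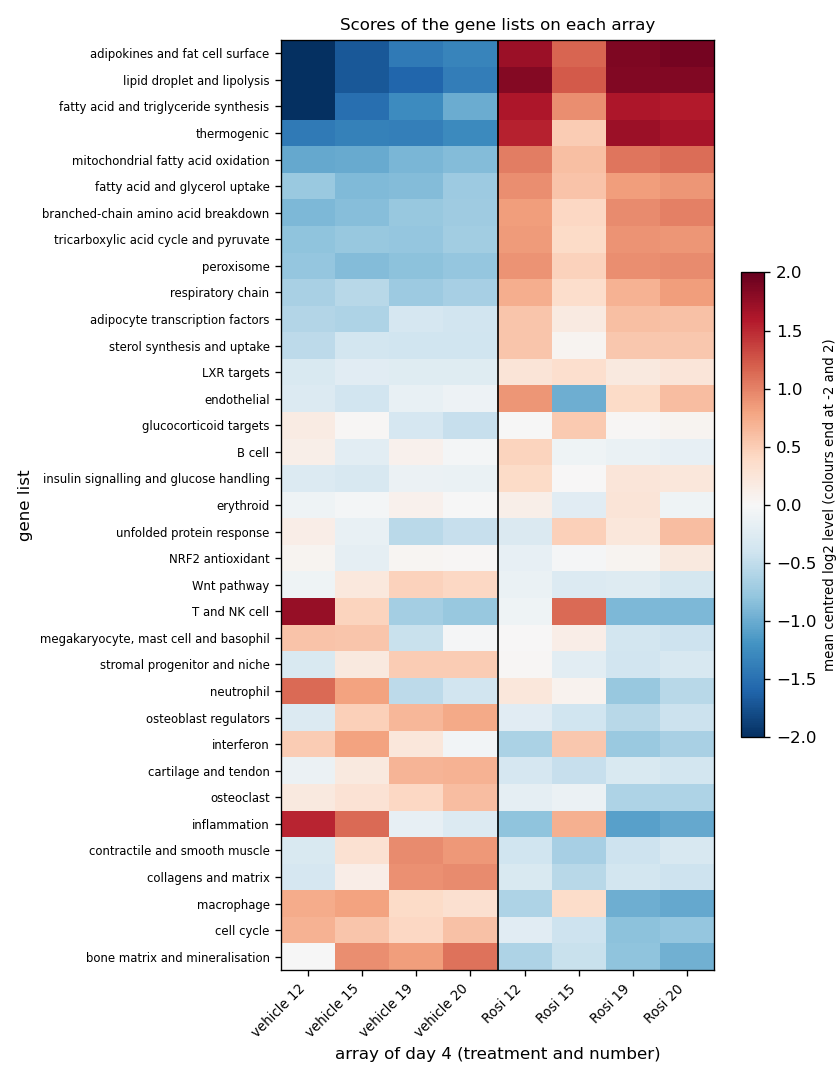
Scores of the 35 gene lists (lines) on the 8 arrays of day 4 (columns), as colours from blue, below the mean of the 8 arrays, to red, above it. Fat cell and mitochondrial lists are blue on the vehicle arrays and red on the Rosi arrays, palest on the Rosi array of number 15. That array is red for the macrophage, inflammation and T and NK cell lists, and the vehicle array of number 12 is nearly white for the bone matrix list.

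The labelled cell type could be checked in the vehicle arrays. Col1a1, the main collagen chain of bone, had levels of 11.11, 11.69, 12.19 and 12.25. Ibsp, bone sialoprotein, had 11.83, 12.40, 12.27 and 12.55, and Alpl, the alkaline phosphatase of mineralising cells, 9.39, 10.40, 10.96 and 11.17. Bglap, osteocalcin, was near background at 3.74, 4.54, 3.94 and 4.42 on a probe set that names Bglap alone. Probe sets that name several genes were left out, so osteocalcin RNA read by such sets was not covered. Markers of macrophages were also well above background, as in Lyz2 (lysozyme) at 12.23, 12.47, 12.44 and 12.36.

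The transcription factors of fat cells rose with Rosi. Of 12 tested, 11 rose and 1 fell, with a median difference of 1.05, against 21.3% and 27.7% of all genes. Pparg itself, the target of the drug, had levels of 8.56, 8.78, 9.17 and 9.20 in vehicle and 10.27, 9.90, 10.23 and 10.29 in Rosi. All Rosi arrays lay above all vehicle arrays, with the Rosi array of number 15 lowest of its group. The difference was 1.24 ± 0.14 (2.37-fold, adjusted p = 3.46e-10, limma). Cebpa, the factor that acts with PPARγ in fat cells, had 8.42, 8.56, 9.01 and 8.91 in vehicle and 10.39, 10.04, 10.28 and 10.21 in Rosi, with no overlap. It rose by 1.51 ± 0.15 (adjusted p = 2.37e-11). Srebf1, which drives fatty acid synthesis, rose by 2.27 ± 0.19, Klf15 by 1.66 ± 0.23 and Nr1h3, the receptor LXRα, by 1.37 ± 0.15. Rxrg, a partner receptor, rose by 1.42 ± 0.18 from vehicle levels under 4.05 on all arrays. The gene that fell was Cebpd (-1.03 ± 0.17), an early factor of fat cell formation, in 4 of 4 pools. It ended under 4.05 on 3 of the Rosi arrays, so the size of its fall is uncertain. In RNA of a whole culture, more cells of a type and more RNA per cell cannot be told apart, here and below.

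Genes of the lipid droplet and of lipolysis moved further. 14 of 15 rose and 0 fell, with a median of 3.44. Plin1, the perilipin that coats the droplet, had 4.59, 6.28, 7.00 and 7.27 in vehicle and 11.18, 10.90, 11.20 and 11.10 in Rosi. The vehicle arrays were spread over more than 2 units, with number 12 lowest, while the Rosi arrays lay close together. The difference was 4.81 ± 0.42 (28-fold, adjusted p = 1.23e-12). Cidec, which fuses droplets, had 4.52, 6.61, 7.49 and 8.46 in vehicle and 12.38, 12.03, 12.31 and 12.39 in Rosi, and again the spread was in the vehicle arrays. It rose by 5.51 ± 0.80 (45.5-fold, adjusted p = 1.74e-07).

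The enzymes that release stored fat rose beside the droplet coat. Pnpla2, the lipase of the first step, had 9.43, 9.14, 9.16 and 9.51 in vehicle and 12.05, 11.87, 12.06 and 12.08 in Rosi, which do not overlap, and rose by 2.70 ± 0.19 (adjusted p = 3.62e-15). Its activator Abhd5 rose by 2.09 ± 0.14 and its inhibitor G0s2 by 3.66 ± 0.23. Plin4 rose by 4.38 ± 0.26, Fitm2, a protein of droplet formation, by 3.67 ± 0.28, and Pnpla3 by 4.13 ± 0.30. Activator and inhibitor of the same lipase therefore both rose. The member not called was Fitm1 (0.23 ± 0.14, adjusted p = 0.196), with an adjusted p of 0.0205 without number 15.

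Uptake of fatty acids and glycerol followed, with 9 of 12 genes higher, 2 lower and a median of 1.87. Cd36, the fatty acid transporter, had 9.88, 9.49, 9.66 and 9.82 in vehicle and 11.88, 11.81, 11.90 and 11.87 in Rosi. The 4 Rosi arrays lay within 0.1 of each other, well above all vehicle arrays, and the difference was 2.15 ± 0.16 (adjusted p = 1.82e-14). Fabp4, the fatty acid binding protein of fat cells, had 9.52, 9.97, 10.19 and 10.63 in vehicle and 12.26, 12.49, 12.40 and 12.41 in Rosi, with the Rosi array of number 15 the highest of all. It rose by 2.31 ± 0.20 (4.97-fold, adjusted p = 6.15e-13).

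Aqp7, the glycerol channel, rose by 3.42 ± 0.24, Slc27a1, a fatty acid transporter, by 4.41 ± 0.32, and Angptl4, a secreted inhibitor of lipoprotein lipase, by 2.12 ± 0.18. Lpl, lipoprotein lipase itself, stood at 11.07, 10.98, 11.22 and 11.10 in vehicle and rose by 1.10 ± 0.10, a smaller difference from a level already high. The 2 members that fell were Acsl5 (-0.61 ± 0.15) and Lrp1 (-0.49 ± 0.21, adjusted p = 0.0438), named here after their values were seen. The call of Lrp1 was lost without the Rosi array of number 15 (adjusted p = 0.0759), without number 19 (-0.30, adjusted p = 0.381) and without number 20 (0.127), with a range of 0.0076 to 0.381 over all alternatives.

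Promoters of genes that moved together were searched for the motif that PPARγ and RXR are known to bind, a direct repeat of AGGTCA spaced by 1 base (AGGTCANAGGTCA, 12 fixed letters, both strands). The windows are RefSeq promoters on GRCm38.p6, from 250 bases before to 50 after the gene's start. The exact repeat stood in 5 of 11614 tested genes with a window (0.0431%), in 2 of 2606 genes that rose (0.0767%) and in 0 of 3278 that fell. With at least 10 of 12 letters matching, the shares were 3.69% of the tested genes, 4.37% of those that rose, 6.70% (14 of 209) of those that rose by more than 2 and 3.17% of those that fell. With at least 9 letters they were 24.6%, 25.3%, 36.8% and 21.9%. A match describes letters in a window, and no binding was measured here.

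Of 35 genes considered, windows were kept only where the best match had at least 9 letters and the gene lay outside an excluded chromosome. The windows shown were thus chosen by the match itself. The 3 shown were picked from the larger number kept. They are of genes that carry the fat cell result and rose in 4 of 4 pools, with the best match in capitals. Where a gene had several windows, the one with the best match was taken, here and in the shares above. Cd36 (chr5:17835847-17836146, minus strand) matches 10 letters on the reverse strand of the window, from 63 bases before the start. Aqp7 (chr4:41047913-41048212, minus strand) matches 10 letters on the reverse strand, from 230 bases before the start. Cidec (chr6:113435711-113436010, minus strand) matches 9 letters on the reverse strand, from 214 bases before the start.
Cd36: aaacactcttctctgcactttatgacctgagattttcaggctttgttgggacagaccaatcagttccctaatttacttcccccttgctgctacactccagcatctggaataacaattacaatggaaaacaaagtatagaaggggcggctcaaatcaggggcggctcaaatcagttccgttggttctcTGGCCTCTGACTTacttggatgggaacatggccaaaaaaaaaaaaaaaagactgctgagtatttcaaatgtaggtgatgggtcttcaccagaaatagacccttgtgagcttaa
Aqp7: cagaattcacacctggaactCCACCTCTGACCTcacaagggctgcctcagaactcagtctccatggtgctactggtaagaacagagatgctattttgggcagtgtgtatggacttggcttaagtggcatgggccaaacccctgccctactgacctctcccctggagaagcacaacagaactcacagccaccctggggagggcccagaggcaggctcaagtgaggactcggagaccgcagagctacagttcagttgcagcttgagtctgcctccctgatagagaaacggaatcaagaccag
Cidec: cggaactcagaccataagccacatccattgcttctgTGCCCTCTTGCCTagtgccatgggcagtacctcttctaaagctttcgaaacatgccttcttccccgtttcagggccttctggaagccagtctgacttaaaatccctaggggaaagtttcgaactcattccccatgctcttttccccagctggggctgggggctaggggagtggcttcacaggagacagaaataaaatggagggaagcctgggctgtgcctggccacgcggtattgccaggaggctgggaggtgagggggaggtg

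Synthesis of fatty acids and triglycerides rose as a group, with 15 of 17 genes higher, 0 lower and a median of 3.14. Fasn, fatty acid synthase, had 8.64, 8.73, 9.04 and 9.55 in vehicle and 12.36, 11.53, 12.36 and 12.29 in Rosi. Number 15 had the lowest Rosi level, still above every vehicle array, and the difference was 3.14 ± 0.27 (8.84-fold, adjusted p = 7.09e-13). Acaca, which makes malonyl-CoA for that enzyme, rose by 2.83 ± 0.25. Of the enzymes that build triglycerides, Agpat2 rose by 3.34 ± 0.25 and Dgat1 by 3.31 ± 0.26. Mlxipl, the glucose-sensing factor ChREBP, rose by 3.30 ± 0.26.

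Pck1, which feeds glycerol synthesis in fat cells, had 4.28, 4.38, 4.26 and 4.42 in vehicle and 8.85, 6.93, 9.50 and 8.72 in Rosi. It rose by 4.16 ± 0.37, and by 4.69 without the Rosi array of number 15, which was lowest by over 1.7 units.

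The secreted factors and surface proteins of fat cells gave the highest median of any list, 3.53, with 16 of 17 higher and 0 lower. Of the 17, 10 lay above 4.05 on all vehicle arrays, and the rest had little room to fall. Slc2a4, the insulin-dependent glucose transporter GLUT4, had 4.56, 5.32, 6.17 and 6.52 in vehicle and 10.37, 9.37, 10.07 and 10.24 in Rosi. No Rosi array came near a vehicle array, and the difference was 4.37 ± 0.38 (20.7-fold, adjusted p = 9.36e-13). Trarg1, a partner of that transporter, had 6.25, 6.17, 7.20 and 7.31 in vehicle and 10.85, 10.96, 11.13 and 11.22 in Rosi and rose by 4.31 ± 0.20, with the smallest adjusted p of all genes (2.75e-20). Lgals12, a lectin of the droplet, rose by 5.35 ± 0.37, and Hcar1, the lactate receptor of fat cells, by 3.85 ± 0.29. Adig, adipogenin, rose by 5.38 ± 0.39 and Cyp2e1, a cytochrome P450, by 5.88 ± 0.32, both from vehicle levels under 4.05 on every array.

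Adipoq, the hormone adiponectin, changed less. Its levels were 7.61, 8.71, 8.71 and 8.76 in vehicle and 10.08, 9.96, 9.93 and 10.07 in Rosi. The groups did not overlap, the vehicle array of number 12 was about 1 unit below the other vehicle arrays, and the difference was 1.56 ± 0.33 (2.96-fold, adjusted p = 9.57e-05). Vehicle cultures thus already held adiponectin RNA well above background at day 4.

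**Figure D3:**
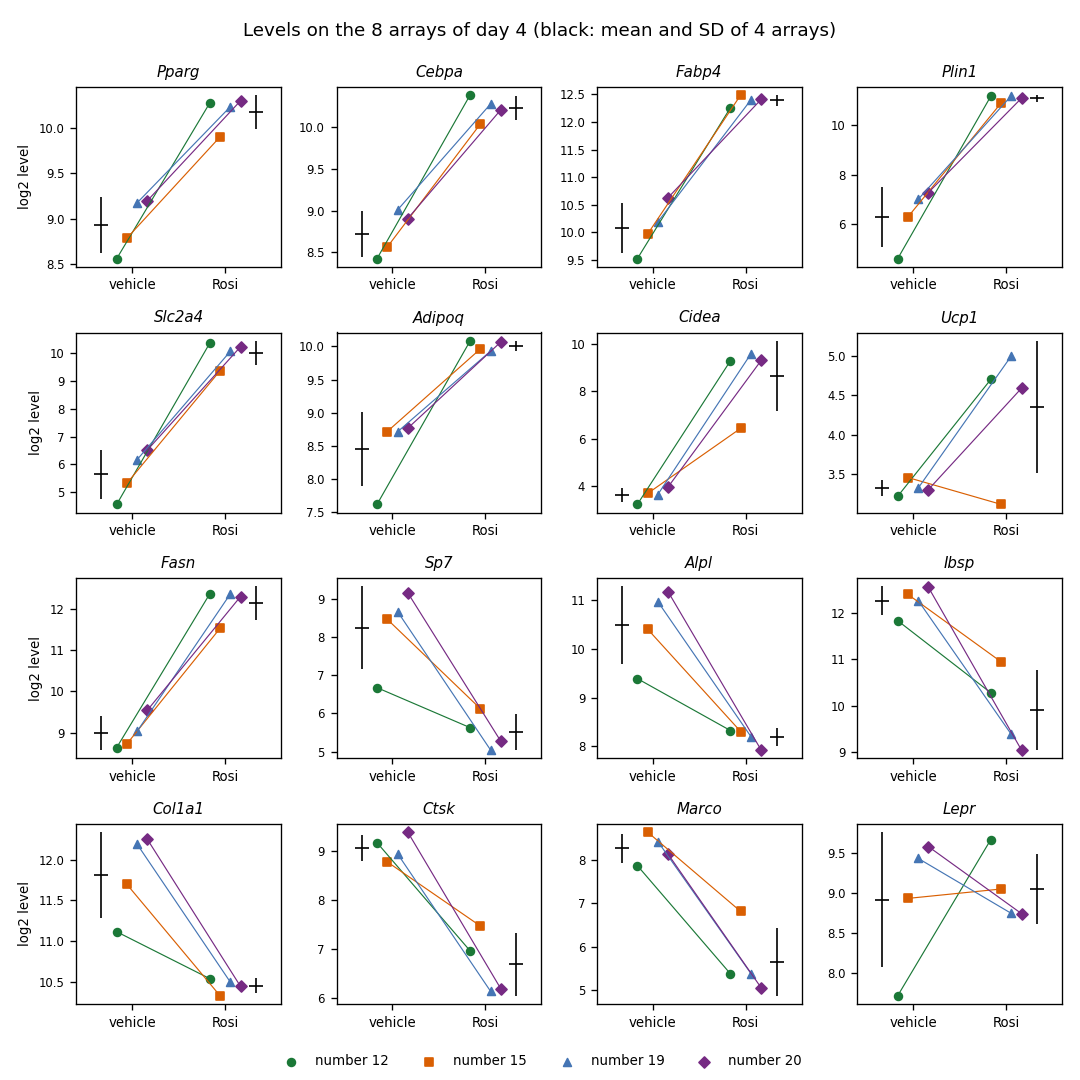
Log2 levels of 16 genes on the 8 arrays of day 4. Each coloured marker is an array, lines join arrays of a number, and black bars give the mean and SD of 4 arrays. For Plin1, Slc2a4 and Fasn the groups are far apart, for Ucp1 the Rosi array of number 15 lies at 3.12 with the vehicle arrays, and for Lepr the lines cross.

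Thermogenic genes, which mark brown and beige fat cells, rose in 9 of 11 cases with 0 lower and a median of 2.15, and with the number as a replicate block 1 also fell. Most started from background, since only 4 of the 11 lay above 4.05 on all vehicle arrays. Genes at background on all vehicle arrays passed the filter through arrays where they were higher, and they had little room to fall. The counts of rises and falls in this list therefore follow in part from the filter. Elovl3, a fatty acid elongase of brown fat, had 3.19, 2.94, 3.11 and 3.33 in vehicle and 10.28, 8.18, 11.03 and 10.87 in Rosi, and rose by 6.95 ± 0.53 (adjusted p = 3.98e-14). Cox8b, a muscle and brown fat subunit of the respiratory chain, had 3.49, 3.04, 3.32 and 3.50 in vehicle and 9.81, 8.19, 9.76 and 9.95 in Rosi, and rose by 6.09 ± 0.51 (adjusted p = 3.82e-13). In both genes the Rosi array of number 15 was the lowest of its group by over 1.5 units, yet about 5 units above vehicle.

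Cidea, a droplet protein of brown fat, had 3.25, 3.70, 3.66 and 3.98 in vehicle and 9.29, 6.45, 9.58 and 9.30 in Rosi, so that number 15 lay almost 3 units under the other Rosi arrays. The difference was 5.01 ± 0.48, and 5.74 without that array. Ppargc1a, the coactivator of mitochondrial genes, rose by 4.65 ± 0.30, Cox7a1 by 3.55 ± 0.31, Ppara, the receptor of fatty acid oxidation, by 3.44 ± 0.33 and Otop1 by 1.82 ± 0.18.

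Ucp1, the uncoupling protein that defines brown fat, behaved otherwise. It had 3.22, 3.46, 3.32 and 3.30 in vehicle and 4.70, 3.12, 5.00 and 4.59 in Rosi. On the Rosi array of number 15 it was lower than on any vehicle array, and on the other Rosi arrays it was 4.59 or more, not far above background. The difference was 1.03 ± 0.20 (adjusted p = 3.24e-05, same sign in 3 of 4 pools), and 1.44 without that array. Over all alternatives the adjusted p was 7.99e-12 to 0.0511, the highest with only the 8 arrays in the fit. The thermogenic score was 0.50 on that array and 1.54 to 1.71 on the other Rosi arrays.

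The oxidative machinery of the mitochondrion rose almost without exception. In fatty acid oxidation 20 of 21 genes rose and 0 fell (median 2.00). Acadl, long-chain acyl-CoA dehydrogenase, had 9.35, 9.24, 9.07 and 9.20 in vehicle and 11.45, 11.08, 11.42 and 11.46 in Rosi, with no overlap, and rose by 2.14 ± 0.16 (adjusted p = 1.09e-14). Acaa2, the last enzyme of the spiral, rose by 2.42 ± 0.17, Eci1 and Eci2, isomerases for unsaturated fats, by 2.82 ± 0.22 and 1.38 ± 0.10, and Etfa and Etfdh, which pass the electrons on, by 1.87 ± 0.13 and 1.93 ± 0.15. Pdk4, the kinase that switches pyruvate use off, had 8.71, 9.45, 9.64 and 9.73 in vehicle and 10.52, 10.13, 10.47 and 10.60 in Rosi and rose by 1.05 ± 0.18. The gene not called was Cpt1a, the liver form of the gate to the mitochondrion (-0.21 ± 0.15, adjusted p = 0.255). Its difference was -0.33 without the Rosi array of number 15 and -0.04 without the vehicle array of number 12.

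In the tricarboxylic acid cycle and pyruvate use 24 of 25 genes rose and 0 fell (median 1.42). Pcx, pyruvate carboxylase, had 6.28, 6.60, 7.26 and 7.59 in vehicle and 11.31, 10.71, 11.31 and 11.30 in Rosi and stood out with a rise of 4.22 ± 0.34 (18.7-fold, adjusted p = 1.59e-13). Idh3a rose by 2.56 ± 0.21, Dlat and Dld of pyruvate dehydrogenase by 2.55 ± 0.23 and 1.82 ± 0.15, Sdha by 1.19 ± 0.11 and Suclg1 by 1.62 ± 0.15. The member not called was Idh2 (-0.07 ± 0.06, adjusted p = 0.346), the mitochondrial isocitrate dehydrogenase that uses NADP.

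All 37 tested genes of the respiratory chain rose, by 0.56 to 2.14 with a median of 1.30. Cyc1, cytochrome c1, had 7.37, 7.67, 7.21 and 7.40 in vehicle and 9.74, 9.01, 9.69 and 9.77 in Rosi, with the Rosi array of number 15 lowest of its group and above all vehicle arrays, and rose by 2.14 ± 0.18 (adjusted p = 4.41e-13). Ndufs1 and Ndufa9 of complex I rose by 1.72 ± 0.14 and 1.57 ± 0.13, Uqcrc2 of complex III by 1.57 ± 0.14, Cox4i1 of complex IV by 1.48 ± 0.13 and Cycs, cytochrome c, by 1.77 ± 0.15.

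The same held for peroxisomes, where 20 of 20 genes rose (0.41 to 3.91, median 1.36), and for the breakdown of branched-chain amino acids, where 19 of 19 rose (0.29 to 3.40, median 1.60). Pex11a, which divides peroxisomes and is a known target of PPAR receptors, rose by 2.64 ± 0.21, Pex16 by 2.78 ± 0.20 and Pex14 by 1.70 ± 0.14. The peroxisomal oxidation enzymes Acaa1b and Hsd17b4 rose by 3.51 ± 0.28 and 1.47 ± 0.11, and Ephx2, an epoxide hydrolase, by 3.91 ± 0.34. Bckdhb, of the enzyme that commits branched-chain acids to breakdown, had 5.83, 6.31, 6.21 and 6.45 in vehicle and 9.72, 9.10, 9.80 and 9.78 in Rosi, without overlap, and rose by 3.40 ± 0.21 (adjusted p = 2.13e-16). Dbt of the same complex rose by 1.99 ± 0.17, Mccc2 by 2.27 ± 0.18, Hibch by 2.63 ± 0.24, Hibadh by 1.60 ± 0.12 and Pcca by 1.81 ± 0.17.

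Insulin signalling and glucose handling split. 10 of 21 genes rose and 8 fell, with a median of 0.10. Among the rises were the receptor and parts of its pathway, with Insr, the insulin receptor, at 1.58 ± 0.18, Irs2 at 1.59 ± 0.15, Foxo1 at 1.66 ± 0.18 and Pfkfb3, a regulator of glycolysis, at 2.01 ± 0.21. Igfbp4, a binding protein of insulin-like growth factors, had 10.91, 11.58, 11.85 and 11.82 in vehicle and 10.56, 10.25, 10.21 and 10.14 in Rosi, no overlap, and fell by 1.25 ± 0.14 (adjusted p = 3.87e-10). Named after their values were seen, 4 other members of the same growth factor axis fell, Igf1r (-0.95 ± 0.15), Igf2 (-1.39 ± 0.31), Igfbp5 (-1.70 ± 0.29) and Igfbp3 (-1.09 ± 0.44). The call of Igfbp3 was lost without the Rosi array of number 15 (adjusted p = 0.18) and without the vehicle array of number 12 (0.0648), and its adjusted p was 0.00455 to 0.254 over all alternatives.

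Of the targets of LXR, the oxysterol receptor, 8 of 15 rose and 6 fell, with a median of 0.39. Abca1, the cholesterol exporter, had 9.16, 8.55, 8.75 and 8.62 in vehicle and 9.56, 9.43, 9.63 and 9.65 in Rosi and rose by 0.80 ± 0.16 (adjusted p = 5.51e-05). Scd1, a desaturase, rose by 2.19 ± 0.28, Lpcat3 by 1.33 ± 0.13 and Apoc1 by 2.28 ± 0.27. In sterol synthesis and uptake 12 of 18 rose and 0 fell, with a median of 0.65. Insig1, the brake on that pathway, rose by 2.26 ± 0.21, Lss by 2.47 ± 0.25, Hmgcs1 by 1.39 ± 0.15, Cyp51 by 1.52 ± 0.20, Pmvk by 1.81 ± 0.23 and Nsdhl by 1.30 ± 0.19. Without the Rosi array of number 15, or with the replicate block, 1 gene of this list fell. The sterol score was 0.05 on the Rosi array of number 15 and 0.54 to 0.56 on the other Rosi arrays.

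**Figure D4:**
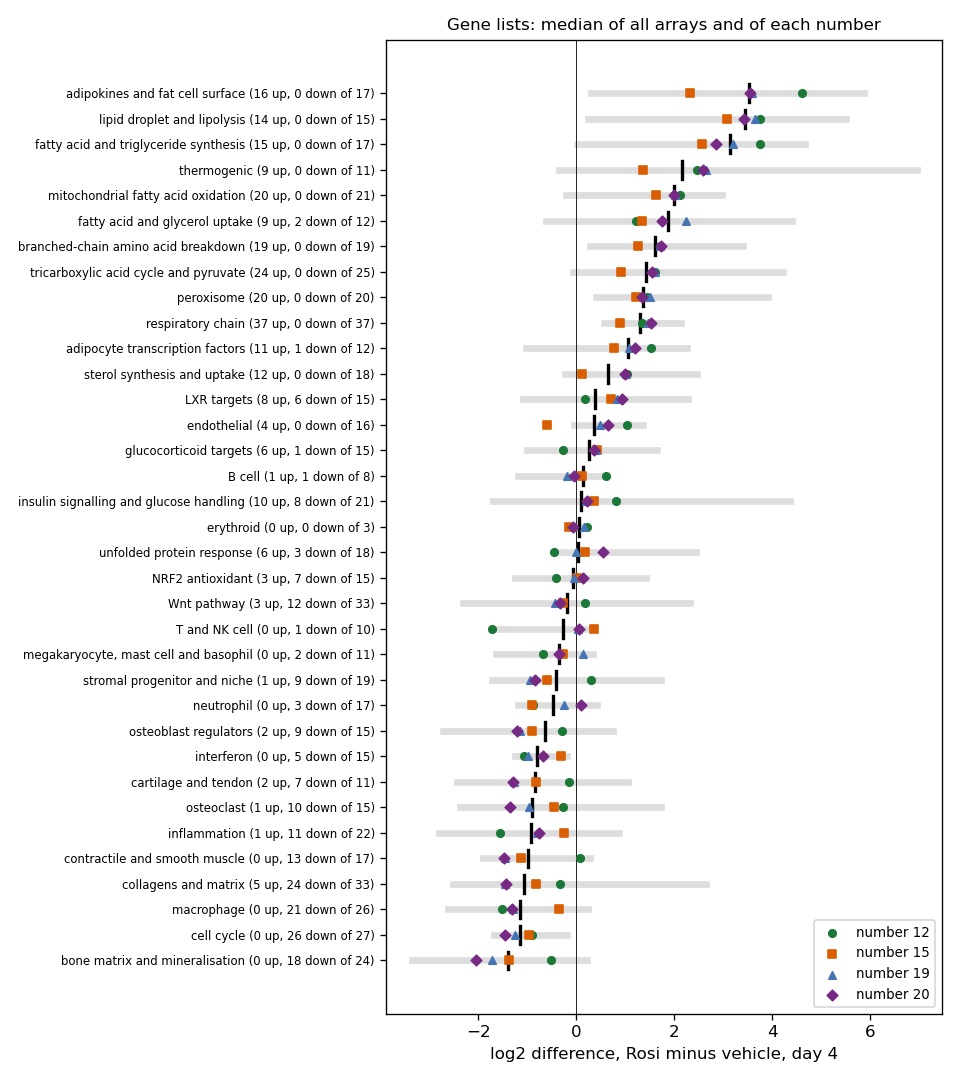
Log2 differences (Rosi minus vehicle, day 4) of the 35 gene lists. The grey bar spans the lowest to the highest member, the black line is the median over members, and the coloured markers are the median within each number. Number 15 lies left of the others in most lists with rises and right of them for macrophages, and number 12 is nearest to 0, or beyond it, in most bone and matrix lists.

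Genes that direct bone formation fell. Of 15 osteoblast regulators, 9 fell and 2 rose, with a median of -0.63. Sp7, osterix, the factor that commits cells to the osteoblast, had 6.68, 8.47, 8.67 and 9.16 in vehicle and 5.63, 6.12, 5.04 and 5.27 in Rosi. The groups did not overlap, number 12 gave the lowest vehicle level, and Sp7 fell by 2.73 ± 0.44 (6.63-fold, adjusted p = 1.48e-06). Without that vehicle array the difference was -3.25. Bmp4, a bone morphogenetic protein, had 8.09, 9.28, 10.11 and 10.24 in vehicle and 7.48, 7.13, 7.29 and 7.35 in Rosi and fell by 2.12 ± 0.25 (adjusted p = 2.2e-09). Dlx5, a homeobox factor of the osteoblast, fell by 1.82 ± 0.24. Dlx6 fell by 0.63 ± 0.16 in 3 of 4 pools, with number 12 the other way, and its adjusted p was 2.82e-07 to 0.0547 over the alternatives. Without number 19 or number 20, 1 regulator rose in place of 2. The master factor Runx2 was not analysed here.

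The proteins of bone matrix and mineral fell in 18 of 24 cases and rose in 0, with a median of -1.40. Alpl had 9.39, 10.40, 10.96 and 11.17 in vehicle and 8.32, 8.30, 8.20 and 7.93 in Rosi. The Rosi arrays lay within 0.4 of each other under all vehicle arrays, and Alpl fell by 2.29 ± 0.27 (4.89-fold, adjusted p = 2.67e-09). Ibsp had 11.83, 12.40, 12.27 and 12.55 in vehicle and 10.28, 10.95, 9.39 and 9.05 in Rosi, no overlap, and fell by 2.35 ± 0.62 (adjusted p = 0.00138).

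Col1a1 had 11.11, 11.69, 12.19 and 12.25 in vehicle and 10.54, 10.32, 10.49 and 10.44 in Rosi and fell by 1.36 ± 0.18 (2.57-fold, adjusted p = 2.49e-08). Pool 12 gave a difference of -0.58 and the other pools -1.81 to -1.37, and the median of the list was -0.52 in pool 12 against -2.05 to -1.37 in the others. Other falls were those of Col1a2 (-1.44 ± 0.16), Lox, which cross-links collagen (-1.27 ± 0.14), and Gja1, the gap junction protein of bone cells (-1.73 ± 0.21). Pth1r, the parathyroid hormone receptor, had 7.54, 8.57, 9.07 and 9.41 in vehicle and 6.39, 6.31, 5.87 and 5.82 in Rosi and fell by 2.55 ± 0.30.

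Some members of the bone list were not called. Dmp1, a matrix protein of late osteoblasts and osteocytes, had 7.54, 9.76, 6.57 and 7.65 in vehicle and 6.18, 7.88, 4.78 and 4.60 in Rosi, and the arrays of number 15 were high in both groups. The difference was -2.02 ± 0.92 (adjusted p = 0.0662), with an adjusted p of 0.00976 with the number as replicate block and 0.0177 without the Rosi array of number 15, and a range of 0.00807 to 0.262 over all alternatives. Bglap, at 4.03, 3.75, 4.57 and 4.03 in Rosi, differed by -0.06 ± 0.23 (adjusted p = 0.85), at levels near background in both groups. As said above, this value covers only a probe set that names Bglap alone.

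Of 33 genes of the Wnt pathway, which promotes bone formation, 12 fell and 3 rose, with a median of -0.18. The share called was near the 49.1% of all genes. Most members named here by their small adjusted p are secreted modulators. The inhibitors Sfrp1 (-2.03 ± 0.21), Sfrp2 (-2.26 ± 0.23) and Dkk3 (-2.25 ± 0.22) fell, and so did the agonist Rspo2 (-2.07 ± 0.19) and the intracellular inhibitor Nkd2 (-2.32 ± 0.29). Inhibitors and an agonist of the pathway therefore fell side by side. Fzd4, a Wnt receptor, had 7.01, 7.25, 7.94 and 7.80 in vehicle and 10.10, 9.42, 9.90 and 9.86 in Rosi and rose by 2.32 ± 0.23 (adjusted p = 1.66e-11).

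Among collagens and other matrix genes 24 of 33 fell and 5 rose, with a median of -1.07. Fmod, fibromodulin, had 8.52, 9.54, 10.46 and 10.56 in vehicle and 7.38, 7.25, 7.47 and 6.95 in Rosi and fell by 2.51 ± 0.30 (adjusted p = 3.73e-09). The vehicle array of number 12 was the nearest to the Rosi arrays. Col3a1 (-1.51 ± 0.18), Thbs2, thrombospondin 2 (-1.68 ± 0.21), Mfap5 of the microfibrils (-2.02 ± 0.26) and Ogn, osteoglycin (-1.21 ± 0.15), also fell. The 5 that rose, named after their values were seen, were Col15a1 (2.64 ± 0.35), Col4a1 (1.59 ± 0.21), Col4a2 (1.54 ± 0.22), Col6a3 (1.34 ± 0.31) and Col6a2 (0.36 ± 0.15, adjusted p = 0.0432). Col4a1, Col4a2 and Col15a1 encode collagens of the basement membrane zone, which surrounds fat cells and vessels. The call of Col6a2 was lost when any of the 4 numbers was left out, with an adjusted p of 0.0582 without number 19 and 0.159 without number 15, and without the vehicle array of number 12 (0.0819). Its adjusted p was 0.0113 to 0.243 over all alternatives.

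Contractile genes fell in 13 of 17 cases and rose in 0, with a median of -0.99. Smtn, smoothelin, fell by 1.29 ± 0.14. Mylk, the myosin light chain kinase (-1.33 ± 0.16), Tpm1, a tropomyosin (-1.43 ± 0.18), Hspb7 (-1.91 ± 0.37) and Actg2, a smooth muscle actin (-1.54 ± 0.29), fell too. Cald1, caldesmon, fell by 0.84 ± 0.14 in 3 of 4 pools. In pool 12 the median of the list was 0.07, against -1.47 to -1.13 in the other pools. Without the Rosi array of number 15, 1 contractile gene rose. Genes of cartilage and tendon fell in 7 of 11 cases and rose in 2, with a median of -0.85. Comp (-2.44 ± 0.35), Scx, the tendon factor scleraxis (-1.55 ± 0.24), Col2a1 (-1.48 ± 0.24) and Sox9, the cartilage factor (-1.37 ± 0.24), fell, while Sox5 rose by 0.60 ± 0.12. Mkx fell by 0.95 ± 0.17, near background and in 3 of 4 pools.

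Genes of the stromal niche of the marrow fell in 9 of 19 cases and rose in 1, with a median of -0.41. Of all genes 27.7% fell and 21.3% rose. Without the vehicle array of number 12, 13 fell, and without all arrays of that number 14. Cxcl12, the chemokine that holds blood stem cells in place, had 11.59, 12.01, 12.15 and 12.22 in vehicle and 11.50, 11.15, 10.96 and 10.93 in Rosi. The groups did not overlap, but the arrays of number 12 differed by only -0.10, and Cxcl12 fell by 0.86 ± 0.12 (adjusted p = 1.41e-07). Pdgfra (-1.67 ± 0.19) and Pdgfrb (-1.23 ± 0.16), growth factor receptors of stromal cells, also fell, as did Csf1, the growth factor of macrophages (-1.10 ± 0.14), and Foxc1 (-0.82 ± 0.14). Mcam was the gene that rose (1.73 ± 0.25).

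Lepr, the leptin receptor that marks these stromal cells, had 7.72, 8.94, 9.44 and 9.58 in vehicle and 9.67, 9.05, 8.75 and 8.75 in Rosi. It was higher with Rosi in numbers 12 and 15 and lower in numbers 19 and 20, and the difference of 0.14 ± 0.54 was not called (adjusted p = 0.864). The sign turned without the vehicle array of number 12 (-0.26) and without number 12 (-0.47), with no call.

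Osteoclast genes fell in 10 of 15 cases and rose in 1, with a median of -0.91. Ctsk, cathepsin K, the main collagen-cleaving enzyme of osteoclasts, had 9.17, 8.77, 8.94 and 9.38 in vehicle and 6.96, 7.47, 6.13 and 6.19 in Rosi, did not overlap, and fell by 2.38 ± 0.28 (5.2-fold, adjusted p = 2.26e-09). Nfatc1, their master factor (-0.83 ± 0.08), Tnfrsf11a, the receptor RANK (-0.95 ± 0.14), and Src (-0.68 ± 0.11) fell. Dcstamp, a protein of cell fusion, fell by 0.99 ± 0.18 in 3 of 4 pools. Car2, carbonic anhydrase, rose by 1.72 ± 0.25, and without the Rosi array of number 15, 2 osteoclast genes rose. Acp5, the acid phosphatase of osteoclasts, had 8.43, 9.09, 9.01 and 9.24 in vehicle and 8.77, 9.34, 8.42 and 8.25 in Rosi, which overlap, and differed by -0.25 ± 0.26 (adjusted p = 0.461). Its difference was -0.46 without the Rosi array of number 15 and -0.42 without the vehicle array of number 12, again not called.

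Of the signals from stromal cells to osteoclasts, both the activator and its decoy fell. Tnfsf11, the ligand RANKL, had 6.16, 6.33, 6.88 and 6.61 in vehicle and 5.72, 5.17, 5.42 and 5.58 in Rosi and fell by 1.02 ± 0.25 (adjusted p = 0.000754). Tnfrsf11b, osteoprotegerin, the decoy for that ligand, had 7.61, 8.04, 7.61 and 7.69 in vehicle and 5.98, 6.72, 5.88 and 6.09 in Rosi and fell by 1.57 ± 0.32 (adjusted p = 5.25e-05). Neither gene's groups overlapped. The macrophage list moved with the osteoclast list, and its part in these values was not tested.

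Macrophage genes fell in 21 of 26 cases and rose in 0, with a median of -1.14. Marco, a scavenger receptor, had 7.88, 8.65, 8.43 and 8.14 in vehicle and 5.37, 6.81, 5.38 and 5.05 in Rosi. The Rosi array of number 15 lay over 1.4 units above the other Rosi arrays and under all vehicle arrays, and Marco fell by 2.62 ± 0.38 (6.16-fold, adjusted p = 2.23e-07). Itgam, an integrin of myeloid cells (-1.52 ± 0.21), C1qb (-0.85 ± 0.12) and C1qc (-1.14 ± 0.17) of complement, and Lyz1 (-1.84 ± 0.22) fell. Lyz1 ended under 4.05 on 3 of the Rosi arrays. Lyz2 fell by 1.02 ± 0.11 and, at 11.35, 11.81, 11.18 and 11.06 in Rosi, stayed far above background. In pool 15 the median of the list was -0.36, against -1.52 to -1.29 in the other pools.

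Markers of other blood cells were called in few cases, beside 27.7% of all genes that fell and 21.3% that rose. Above 4.05 on all vehicle arrays lay 16 of 17 neutrophil, 4 of 10 T and NK cell and 5 of 8 B cell genes. The same held for 8 of 11 genes of megakaryocytes, mast cells and basophils and for 2 of 3 erythroid genes. Genes at background had little room to fall, so few calls say little about cells with such markers. Of 17 neutrophil genes, 3 fell and 0 rose. Those 3 were Csf3r (-0.73 ± 0.24), Ctsg (-1.16 ± 0.45) and Prtn3 (-1.01 ± 0.41), whose groups overlapped. Without number 15, 19 or 20, 1 gene fell. Without the vehicle array of number 12 the 3 lost the call, Csf3r with a difference of -0.44, and their adjusted p was 0.127, 0.131 and 0.152. Ctsg and Prtn3 also lost it without the Rosi array of number 15 (adjusted p = 0.0541 and 0.0942). Over all alternatives the adjusted p of the 3 was 2.63e-05 to 0.201, 0.00915 to 0.138 and 0.000214 to 0.199. Elane and Mpo, enzymes of neutrophil granules, had differences of -1.18 ± 0.55 and -0.94 ± 0.44 (adjusted p = 0.0735 and 0.0754), and without number 12 they were called (adjusted p = 0.00869 and 0.00284).

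Of 10 T and NK cell genes, 1 fell, Cd4 (-1.65 ± 0.50, in 3 of 4 pools), and 3 fell without the Rosi array of number 15. Cd4 lost the call without number 19 (adjusted p = 0.0776) or number 20 (0.0528), with a range of 5.94e-07 to 0.0776 over all alternatives. Of 8 B cell genes, Cd22 fell (-1.18 ± 0.40) and Ebf1, which stromal and fat cells also use, rose (0.57 ± 0.20, and 0.24 without the vehicle array of number 12). Neither was called without that vehicle array (adjusted p = 0.107 and 0.265), and over all alternatives the adjusted p was 8.63e-11 to 0.107 and 0.00564 to 0.385. Of 11 genes of megakaryocytes, mast cells and basophils, Pf4 (-0.91 ± 0.22) and Mcpt8 (-1.63 ± 0.59) fell. With the replicate block, or without the Rosi array of number 15, 1 also rose. Mcpt8 differed by -1.07 without the vehicle array of number 12 (adjusted p = 0.151), and its adjusted p was 0.016 to 0.311 over all alternatives. Of the 3 erythroid genes tested, out of 10 listed, limma called 0, and 0 had an unadjusted p under 0.05. Ermap, Epor and Slc4a1 differed by 0.10 ± 0.15, -0.07 ± 0.17 and 0.06 ± 0.17.

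The endothelial count moved with single arrays. 4 of 16 genes rose and 0 fell, with a median of 0.37, and the share that rose was near the 21.3% of all genes. Without the Rosi array of number 15, 12 rose, and without the vehicle array of number 12, 2 did. Leaving out all arrays of a number gave 1 gene without number 12 or 20, 2 without 19 and 8 without 15. Kdr, a receptor of the vascular growth factor, had 5.25, 5.66, 6.32 and 6.16 in vehicle and 8.14, 5.36, 7.58 and 7.81 in Rosi. Of the Rosi arrays only that of number 15 overlapped the vehicle arrays. The difference was 1.37 ± 0.45 (adjusted p = 0.00975), 1.99 without that array (adjusted p = 9.85e-05) and 0.87 without number 12 (0.103), with adjusted p of 6.21e-05 to 0.103 over all alternatives.

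Flt1, a sister receptor, rose by 0.97 ± 0.23 in 4 of 4 pools. Robo4 (0.88 ± 0.34) and Egfl7 (0.41 ± 0.17), proteins of vessel walls, rose in 3 of 4 pools, and without the Rosi array of number 15 their differences were 1.40 and 0.64. Without the vehicle array of number 12 they lost the call (adjusted p = 0.0775 and 0.0645), and without number 12 they differed by 0.51 and 0.23. Over all alternatives the adjusted p was 6.45e-05 to 0.269 for Robo4 and 0.000128 to 0.262 for Egfl7. Esam and Sox18 gave 0.51 ± 0.29 and 0.81 ± 0.45 (adjusted p = 0.15 and 0.132). Without the Rosi array of number 15 they differed by 0.87 and 1.36 (adjusted p = 0.00828 and 0.00726).

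Genes of the cell cycle fell almost throughout. 26 of 27 fell and 0 rose, with a median of -1.15. Plk1, a mitotic kinase, had 8.32, 8.21, 8.31 and 8.45 in vehicle and 7.13, 6.73, 6.44 and 6.58 in Rosi. The vehicle arrays lay within 0.3 of each other, all above the Rosi arrays, and Plk1 fell by 1.60 ± 0.16 (3.03-fold, adjusted p = 1.97e-11). Cdk1, the kinase of mitotic entry (-1.26 ± 0.14), its cyclins Ccna2 (-1.39 ± 0.16) and Ccnb2 (-1.47 ± 0.17), the spindle protein Tpx2 (-1.29 ± 0.15) and Cdc20 (-1.22 ± 0.15) fell as well.

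Inflammatory genes fell in 11 of 22 cases and rose in 1, with a median of -0.93, and without number 12, 7 fell. Of all genes 27.7% fell and 21.3% rose. Il1rn, the interleukin 1 receptor antagonist, had 9.97, 10.54, 10.32 and 10.24 in vehicle and 9.13, 9.11, 8.16 and 8.11 in Rosi, did not overlap, and fell by 1.64 ± 0.17 (adjusted p = 7.23e-11). Ccl3, a chemokine (-2.40 ± 0.60), Icam1, an adhesion protein (-1.16 ± 0.26), and Lif, a cytokine (-0.91 ± 0.16), fell. Ccl9, a chemokine, had 12.28, 12.04, 11.54 and 11.34 in vehicle and 10.32, 12.09, 10.17 and 10.11 in Rosi, so that number 15 did not differ, and fell by 1.13 ± 0.26 in the fit (adjusted p = 0.000335). Over all alternatives its adjusted p was 1.18e-10 to 0.0737, the highest with only the 8 arrays in the fit. Ptges, prostaglandin E synthase, rose by 0.87 ± 0.16.

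Of 15 interferon genes, 5 fell and 0 rose, with a median of -0.81, and the share that fell was near the 27.7% of all genes. With the replicate block 8 fell, without the vehicle array of number 12, 2 fell, and without number 12, 19 or 20, 1, 2 and 1 fell. The 5 were Oasl2 (-1.17 ± 0.36), Oas2 (-1.26 ± 0.42), Stat2 (-0.97 ± 0.37), Oas3 (-1.01 ± 0.41) and Irf7 (-1.07 ± 0.44). Stat2, Oas3 and Irf7 lost the call without the vehicle array of number 12 (limma's adjusted p = 0.0692, 0.11 and 0.0894). Over all alternatives the adjusted p of the 5 was 4.46e-05 to 0.0435, 1.3e-05 to 0.0785, 5.86e-05 to 0.113, 0.00453 to 0.198 and 0.000785 to 0.159. In all 5 the groups overlapped through the Rosi array of number 15. The inflammation and interferon scores were 0.71 and 0.54 on that array, inside the range of the vehicle arrays (-0.28 to 1.52 and -0.06 to 0.80), and macrophage genes moved with both lists, whose part was not tested.

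Of the targets of the glucocorticoid receptor, which the dexamethasone of the medium engages in both groups, 6 of 15 rose and 1 fell, with a median of 0.25. The share called in this list was near the 49.1% of all genes. Zbtb16, a zinc finger factor, rose by 1.57 ± 0.31, Klf9 by 0.67 ± 0.15, Nr3c1, the receptor itself, by 0.41 ± 0.09, and Mt1, a metallothionein, by 0.46 ± 0.11. Errfi1 fell by 1.01 ± 0.17. Without the Rosi array of number 15, or with the replicate block, 3 of the list fell. Mt2, the other metallothionein, rose by 0.71 ± 0.25 in 3 of 4 pools. It lost the call without the Rosi array of number 15 (adjusted p = 0.0881), without number 19 (0.165) and without number 20 (0.225), with a difference of 1.07 without number 12 and an adjusted p of 1.38e-05 to 0.225 over all alternatives.

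In the unfolded protein response 6 of 18 genes rose and 3 fell, with a median of 0.04, so that the share called was near the 49.1% of all genes. Trib3 had 5.79, 4.84, 4.06 and 4.29 in vehicle and 5.31, 7.44, 7.94 and 8.09 in Rosi. In number 12 the Rosi array was lower than its vehicle array, in the other numbers it was over 2 units higher, and the difference was 2.45 ± 0.42 (adjusted p = 4.07e-06). Ddit3, the stress factor CHOP, had the same pattern, with 7.25, 6.56, 5.89 and 5.84 in vehicle and 6.81, 8.69, 8.67 and 9.35 in Rosi, and rose by 2.00 ± 0.36. Chac1 rose by 1.50 ± 0.35 in the same 3 pools. Asns, asparagine synthetase, rose by 1.53 ± 0.25 and Dnajb9, a chaperone of the endoplasmic reticulum, by 1.74 ± 0.14, while Pdia3, a chaperone too, fell by 0.45 ± 0.09. Without the Rosi array of number 15, 5 genes of the list fell, and with cyclic loess 1 did.

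Of 15 NRF2 antioxidant genes, 3 rose and 7 fell, with a median of -0.06. The superoxide dismutases Sod1 and Sod2 rose by 1.43 ± 0.16 and 1.06 ± 0.11. Nqo1 (-1.09 ± 0.14), Hmox1, heme oxygenase (-0.79 ± 0.15, and -0.41 without number 12), Gpx3 (-1.26 ± 0.14) and Txnrd1 (-0.34 ± 0.10) fell. Txnrd1 had an adjusted p of 0.0541 without number 20, and 0.00115 to 0.0541 over all alternatives. The count of falls was 4 without the vehicle array of number 12, without number 19 or with cyclic loess between arrays, and 3 without number 20.

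Many of the largest rises over all genes were of genes at or near background in vehicle cultures. Others, such as Aldh1a7, Tmem182 and Tshr, lay above 4.05 on all vehicle arrays. Sptlc3, a subunit of the enzyme that starts sphingolipid synthesis, had 2.76, 3.51, 3.58 and 4.39 in vehicle and 10.81, 10.62, 11.06 and 11.09 in Rosi. The 4 Rosi arrays, number 15 included, lay within 0.5 of each other, and Sptlc3 rose by 7.33 ± 0.52 (161-fold, adjusted p = 5.42e-15). Aldh1a7, an aldehyde dehydrogenase, rose by 5.28 ± 0.50, Tmem45b by 5.57 ± 0.42, Lrrc39 by 4.80 ± 0.36 and Tmem182 by 4.75 ± 0.36. Tshr, the thyrotropin receptor, and Klb, the co-receptor of the hormone FGF21, rose by 4.77 ± 0.38 and 4.74 ± 0.38. Klb had 3.48, 4.59, 5.48 and 5.43 in vehicle and 9.62, 8.61, 9.98 and 9.73 in Rosi, and Tshr 4.33, 5.50, 6.08 and 6.09 in vehicle and 10.23, 9.88, 10.38 and 10.59 in Rosi. In both genes vehicle number 12 was lowest and the groups were at least 3 units apart.

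The largest falls over all genes were smaller than the largest rises. C1qtnf3, a secreted relative of adiponectin, had 6.64, 7.48, 8.44 and 9.42 in vehicle and 4.51, 4.10, 4.51 and 4.14 in Rosi. The vehicle arrays were spread over more than 2 units while the Rosi arrays lay within 0.5 of each other, and C1qtnf3 fell by 3.68 ± 0.56 (12.8-fold, adjusted p = 4.26e-07). Panx3, a channel of the osteoblast, had 6.88, 8.91, 9.37 and 10.04 in vehicle and 5.62, 6.00, 4.90 and 4.79 in Rosi and fell by 3.47 ± 0.74 (adjusted p = 0.000111). Omd, osteomodulin of bone matrix (-3.36 ± 0.51), Clec11a, a secreted factor that promotes bone formation (-2.82 ± 0.33), Mmp13, a collagenase of bone (-2.73 ± 0.39), and Slc13a5, a citrate transporter (-2.55 ± 0.58), fell too. Ndnf (-2.78 ± 0.49), Dpysl3 (-2.56 ± 0.29) and P2rx2, an ATP-gated channel (-3.12 ± 0.39), were also among the 15 largest falls, with Sp7 and Pth1r given above. P2rx2 ended under 4.05 on 2 of the Rosi arrays.

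Cd5l, a secreted protein of macrophages, had 10.30, 9.34, 8.43 and 8.60 in vehicle and 4.97, 8.32, 5.72 and 5.90 in Rosi and fell by 2.94 ± 0.65 (adjusted p = 0.00018). The Rosi array of number 15 was over 2 units above the other Rosi arrays, and without it the difference was -3.64. Ccl12, a monocyte chemokine, had 9.58, 9.24, 5.97 and 5.72 in vehicle and 4.00, 7.91, 3.62 and 4.10 in Rosi. Numbers 12 and 15 were high in vehicle, number 15 was high in Rosi, the groups overlapped, and Ccl12 fell by 2.72 ± 0.80 (adjusted p = 0.00421). Without number 12 it differed by -1.76 (adjusted p = 0.102, with a range of 1.14e-05 to 0.108 over all alternatives). Hpse, heparanase, fell by 2.57 ± 0.44, with number 15 again the highest of the Rosi arrays.

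The difference at day 4 was set against that at day 1 within the same fit. The day 4 minus day 1 difference was called for 4480 of 14911 genes (30.0%), positive for 2149 (14.4%) and negative for 2331 (15.6%). The count was 2704 without number 19 and 2406 without number 20. Elovl3 differed by 0.20 at day 1 and 6.95 at day 4, a change of 6.75 ± 0.75 (adjusted p = 1.63e-08). Cox8b, Cyp2e1, Tmem45b and Cidea followed with changes of 6.11, 5.91, 5.44 and 4.86, each from a day 1 difference between -0.03 and 0.15.

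Genes of the lipid droplet and of uptake differed in their course between the days. In the droplet list the median was 1.69 at day 1, and a positive change was called in 9 of 15 genes and a negative one in 0. Plin1 differed by 4.73 at day 1 and 4.81 at day 4, a change of 0.08 ± 0.60 (adjusted p = 0.942). Cidec had 4.67 and 5.51 (change 0.84 ± 1.13, adjusted p = 0.638), and Aqp7 3.49 and 3.42 (change -0.07 ± 0.34, adjusted p = 0.908). For these genes no change was detectable beyond the error given. Fabp4 had 2.62 and 2.31 (change -0.31 ± 0.28, adjusted p = 0.461).

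Adipoq and Angptl4 gave smaller differences at day 4 than at day 1. Adipoq had 3.07 at day 1 and 1.56 at day 4 (change -1.50 ± 0.46, adjusted p = 0.0114), and Angptl4 2.98 and 2.12 (change -0.86 ± 0.25, adjusted p = 0.00756). Lepr had 2.58 and 0.14 (change -2.45 ± 0.77, adjusted p = 0.0129). Pdk4 and Pck1 were 0.04 and 0.29 at day 1, with changes of 1.01 and 3.88 (adjusted p = 0.00221 and 3.45e-07).

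Mitochondrial and cell cycle genes differed mainly at day 4. In the respiratory chain the median was 0.11 at day 1 and 1.30 at day 4, and the change was positive and called in 37 of 37 genes. In fatty acid oxidation it was called as positive in 20 of 21 and in the tricarboxylic acid cycle in 22 of 25, with 1 negative change called in each. These were Cpt1a, with 0.73 at day 1 and -0.21 at day 4 (change -0.93 ± 0.21, adjusted p = 0.000611), and Idh2 (change -0.25 ± 0.09, adjusted p = 0.03). In the cell cycle list the median was 0.10 at day 1 and -1.15 at day 4, with a negative change called in 26 of 27 genes.

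Sp7 and Bmp4 had negative differences at day 1 too, while Gja1 differed by 0.42 ± 0.21 at day 1. Sp7 differed by -1.58 ± 0.44 at day 1 and -2.73 at day 4 (change -1.14 ± 0.62, adjusted p = 0.174). Bmp4 differed by -1.27 ± 0.25 and -2.12 (change -0.85 ± 0.36, adjusted p = 0.0667). For Sp7 and Bmp4 the change between the days was thus not called. Alpl and Col1a1 differed by -0.42 ± 0.27 and -0.20 ± 0.18 at day 1, values small beside their error, so that a fall at day 1 is not shown. Their changes were -1.87 and -1.16 (adjusted p = 0.000235 and 0.000442). In the bone matrix list a negative change was called in 11 of 24 genes and a positive change in 0. The most negative changes over all genes were those of P2rx2 (-3.36), C1qtnf3 (-3.00), Cd5l (-2.99), Mmp13 (-2.89) and Pi15 (-2.89). At day 4, Pi15 lay under 4.05 on 3 of the Rosi arrays and P2rx2 on 2.

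Osteoclast signals took different courses. Tnfsf11 differed by 0.63 at day 1 and -1.02 at day 4 (change -1.66 ± 0.36, adjusted p = 0.000399), while Tnfrsf11b had -2.09 and -1.57 (change 0.52 ± 0.45, adjusted p = 0.429).

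**Figure D5:**
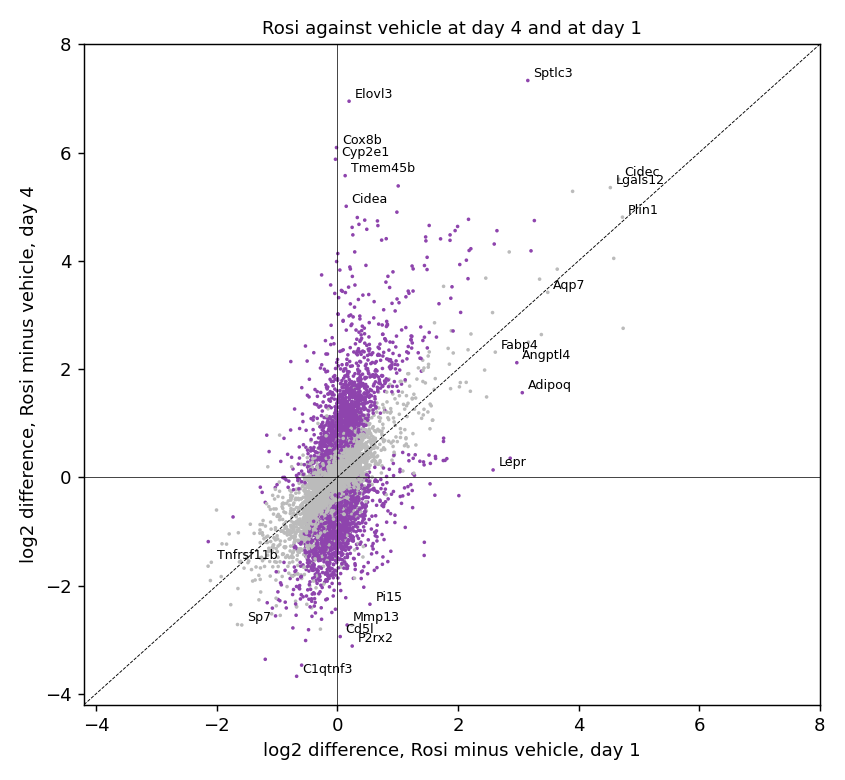
Each point is a gene, with its log2 difference (Rosi minus vehicle) at day 1 on the x axis and at day 4 on the y axis. The dashed line marks equal differences, and purple points are the 4480 genes whose day 4 minus day 1 difference was called. Elovl3, Cox8b, Cyp2e1 and Cidea lie near 0 at day 1 and above 5 at day 4, while Plin1, Aqp7 and Fabp4 lie near the line.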

How the data were processed

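The members and the 35 gene lists were chosen with earlier results of these data known. Values are log2 intensities of 41345 probe sets, deposited by the authors. R 3.3.1 and oligo are named per the submitters' processing notes, and the background correction and normalization behind them were not given in the sources used here. Of the probe sets, 23521 name 1 gene, 1814 several and 16010 none (platform annotation). The first kind was used, with the probe set of highest mean where a gene had several (1082 genes).

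Genes above 4.05 on at least 4 of the 52 arrays were tested (14911, with 7269 set aside) in 1 limma 3.58.1 fit (R 4.3.3) of 13 group means over all arrays, with 39 residual df, and Benjamini-Hochberg adjustment over all tested genes. The script was tested on simulated data with 14911 genes, of which 200 changed in Rosi against vehicle at day 4: it recovered 58%, 86%, 98% and 100% of changes of 0.5, 1, 1.5 and 2 log2 units, and 6.56% of 183 calls were false.

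The numbers of the arrays are the labelled source of the cells. Deviations from the group means correlated between same-numbered arrays by -0.25 (12), 0.46 (15), 0.42 (19) and 0.37 (20). Between arrays of other numbers the values were -0.53 to 0.34 and, for the vehicle array of number 12 with the Rosi array of number 15, 0.47, so differences within numbers 12 and 15 rest on a pairing that these values do not bear out for number 12.

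Named genes are the 15 largest rises and 15 largest falls with 1 sign in 4 pools, up to 6 members a list with the smallest adjusted p, key genes, and the 5 largest changes between days each way. Others were named after their values were seen, which is said where they are given, save for Cebpd, Fitm1, Cpt1a and Idh2. Those genes were named because they fell or were not called in lists that rose. Alternatives were a replicate block, only the 8 arrays, cyclic loess, the mean of probe sets, other filters, array weights, and leaving out each number or the Rosi array of number 15. Leaving out the vehicle array of number 12 was chosen after seeing the data.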

Additional observations from a re-analysis of the deposited data

Results flagged for a closer look

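An array was read as apart where its gap to the nearest array of its group was large for the group's range (Dixon's test). This was so in 20 of 176 groups of 4 arrays examined (11.36%), where chance gives about 1 in 20.

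The Rosi array of number 15 accounts for most of these 20 groups. Its list scores were 0.18 for adipocyte transcription factors, 1.22 for the lipid droplet, 0.93 for fatty acid and triglyceride synthesis, 0.50 for thermogenic genes, 0.46 for peroxisomes, 0.38 for the tricarboxylic acid cycle and 0.05 for sterol synthesis, each the lowest of the 4 Rosi arrays. Its scores of 0.71 for inflammation, 0.54 for interferon and 0.52 for glucocorticoid targets were the highest. Of single genes, Cox8b (8.19), Cidea (6.45), Tmem182 (10.57), Pparg (9.90) and Lpl (11.99) were lowest on that array, and Ndnf (7.25) and Ccl12 (7.91) highest. Other arrays were apart in 3 cases, with the B cell score at 0.44 on the Rosi array of number 12, the NRF2 score at -0.18 on the vehicle array of number 15 and Adipoq at 7.61 on the vehicle array of number 12.

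The difference at day 4 was another than that at day 1 for 4480 genes by limma. The largest positive changes were those of Elovl3 (6.75), Cox8b (6.11), Cyp2e1 (5.91), Tmem45b (5.44) and Cidea (4.86), and the largest negative ones those of P2rx2 (-3.36), C1qtnf3 (-3.00), Cd5l (-2.99), Mmp13 (-2.89) and Pi15 (-2.89). In Cox8b and Cidea the array of number 15 lay apart as well, and both still rose in 4 of 4 pools.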

How the results depend on the processing

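The count of genes called at day 4 was 7316 and lay between 5438 (only the 8 arrays) and 8142 (replicate block without the Rosi array of number 15) under the 14 alternatives. With the replicate block it was 7880 (3370 higher, 4510 lower), with cyclic loess 7329 (3519 and 3810), with array weights 8139 and with the stricter filter on low values 5892. Leaving out a number gave 5928 to 7284. The day 4 minus day 1 count of 4480 was 5140 with the replicate block and 5106 without the Rosi array of number 15. Leaving out a number gave 2406 to 4365, lowest without number 20 and next without number 19 (2704); the cause was not tested. Of 234 genes named and tested, 220 were called, 197 of these under every alternative that tested them, and 23 lost the call under at least 1. The replicate block changed the call of Dmp1 (adjusted p = 0.00976 by limma) and of no other named gene. No named gene's difference reversed with a call in the main fit or the alternative. Genes without a call could change sign, as Lepr did (0.14, and -0.26 without the vehicle array of number 12). Of 980 counts over lists (35 lists, 2 directions, 14 alternatives), 94 moved by over 1.5 times, mostly in lists with few calls. The arrays read near background below 4.05, which limits the size of rises from there.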
